A study of Mus musculus with 12 samples.

Results

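The mitochondrial ribosomal protein genes are the nuclear genes for the proteins of the ribosome inside mitochondria, here every protein-coding gene whose mouse symbol is Mrpl or Mrps followed by a number and an optional letter. Of the 49671 genes in the files, 78 met this rule, 49 with an Mrpl and 29 with an Mrps symbol, on 17 chromosomes. Mitochondria keep a ribosome of their own, which translates the few respiratory chain proteins that mitochondrial DNA encodes. Its RNAs are made inside the mitochondrion, while its proteins are encoded in the nucleus, made in the cytosol and imported. T cells that are activated and start to divide are known to enlarge their mitochondria. Most Mrpl proteins sit in the large subunit, which joins amino acids, and most Mrps proteins in the small subunit, which decodes the messenger RNA. Exceptions are the proteins of Mrps30 and Mrps18a, which sit in the large subunit, and that of Mrps36, which belongs to the 2-oxoglutarate dehydrogenase complex.

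The study profiled RNA of regulatory T cells (Tregs), the Foxp3-dependent CD4 T cells that hold immune reactions in check, from C57BL/6 mice aged 8 weeks. The mice were WT or "Gclc mutant"; Gclc is the gene for the catalytic part of the enzyme that starts glutathione synthesis. The 4 groups were WT nTregs, Gclc mutant nTregs, WT iTregs and Gclc mutant iTregs, with 3 libraries in each, where nTregs were sorted from the animal and iTregs were made in culture out of naive CD4 T cells. Libraries are named by the labels' numbers, which run 1, 2 and 3 in WT groups and 1, 2 and 4 in mutant groups. The labels do not say in which cells Gclc was mutated, whether animals were pooled, or whether a group's libraries stem from different animals or cultures. The p-values therefore measure only the spread between these libraries, which may be technical.

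The libraries held 28707579 to 39886130 counts. Levels are given in CPM, the usual measure of a gene's counts relative to the size of its library, with sizes scaled by the TMM method, which corrects for a few genes taking a large share of a library. Gclc stood at 70.8 to 79 CPM in WT nTregs and 41.7 to 45.8 in mutant nTregs, and at 51.9 to 56.5 in WT iTregs and 18.8 to 21 in mutant iTregs, so every library fitted its genotype label. Foxp3 stood at 559 to 610 CPM in WT nTregs, 135 to 217 in mutant nTregs, 287 to 300 in WT iTregs and 75.5 to 107 in mutant iTregs. The 7 Treg markers, Foxp3 among them, summed to 3301 to 3626 CPM in WT nTregs and 2380 to 2992 in mutant nTregs. In iTregs they summed to 2374 to 2568 CPM in WT and 2507 to 2718 in mutant libraries, so this sum did not follow Foxp3 there. The library mutant nTreg 1 stood apart: 10 markers of CD8 T and NK cells summed to 1492 CPM there, to 161.5 and 191.6 in the other mutant nTreg libraries, and to 37.8 to 89.2 in the 9 remaining libraries. The 6 B cell markers summed to 174 to 409 CPM in nTregs and to 2.45 to 3.68 in iTregs. The 5 erythroid markers summed to 381.7, 674.4 and 135.7 CPM in mutant nTregs 1, 2 and 4. They summed to 82.7 to 300.8 CPM in WT nTregs and to at most 0.108 in iTregs. In bulk RNA, fewer cells of a type and less of an RNA per cell cannot be told apart, which holds for every difference below.

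Stretches around the start sites of 5 members are shown because the results turn on these genes: Mrpl12 rose most with the mutation in nTregs, Mrpl27 rose there beside a gene for a DNA repair nuclease, Mrpl32 rose in iTregs, Mrpl45 differed most between iTregs and nTregs, and Mrpl24 was the only member to fall in mutant nTregs. Each runs 5′ to 3′ on the gene's own strand from 200 bases before the start to 30 bases after it, from RefSeq (GRCm38.p6). Capitals mark 4 motifs on either strand: TGCGCA (the unit that the NRF1 motif repeats), CCGGAAG (the ETS motif, bound by GABPA), CACGTG (the E-box, bound by MYC) and AANATGG (the core of the YY1 motif). These factors are known regulators of nuclear genes for mitochondrial proteins.
Mrpl12 (chr11:120484437-120484666, plus strand): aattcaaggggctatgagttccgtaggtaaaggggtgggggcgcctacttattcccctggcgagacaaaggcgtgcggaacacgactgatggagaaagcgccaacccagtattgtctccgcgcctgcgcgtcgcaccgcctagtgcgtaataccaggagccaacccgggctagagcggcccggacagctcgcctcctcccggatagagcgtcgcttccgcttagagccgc
Mrpl27 (chr11:94653591-94653820, plus strand): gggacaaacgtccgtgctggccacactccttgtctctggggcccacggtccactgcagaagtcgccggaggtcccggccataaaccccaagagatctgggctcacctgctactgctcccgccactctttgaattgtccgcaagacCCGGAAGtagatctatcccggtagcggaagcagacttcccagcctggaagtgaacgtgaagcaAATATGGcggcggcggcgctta
Mrpl32 (chr13:14613008-14613237, minus strand): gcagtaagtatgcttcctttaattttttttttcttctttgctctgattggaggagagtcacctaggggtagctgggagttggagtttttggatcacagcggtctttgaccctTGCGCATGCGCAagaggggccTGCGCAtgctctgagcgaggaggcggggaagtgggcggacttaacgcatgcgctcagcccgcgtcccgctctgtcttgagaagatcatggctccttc
Mrpl45 (chr11:97315516-97315745, plus strand): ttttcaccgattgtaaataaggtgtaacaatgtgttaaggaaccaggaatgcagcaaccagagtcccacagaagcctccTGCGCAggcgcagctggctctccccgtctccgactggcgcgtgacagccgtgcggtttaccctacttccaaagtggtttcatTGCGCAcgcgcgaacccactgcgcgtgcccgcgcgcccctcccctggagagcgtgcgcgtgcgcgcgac
Mrpl24 (chr3:87919344-87919573, plus strand): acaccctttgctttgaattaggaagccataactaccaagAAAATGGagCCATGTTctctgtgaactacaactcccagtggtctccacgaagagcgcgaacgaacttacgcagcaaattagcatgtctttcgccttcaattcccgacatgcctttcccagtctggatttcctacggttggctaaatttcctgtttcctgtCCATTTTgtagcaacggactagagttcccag

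Windows were at hand for 69 of the 78 members and for 10102 tested protein-coding genes, and motifs were counted over the full windows of 300 bases (250 before and 50 after the start). The ETS motif was found in 37.7% of members and 20.1% of tested genes, the NRF1 unit in 30.4% and 15.7%, and the YY1 core in 33.3% and 17.6%. The E-box was found in 7.25% of members and 11.5% of tested genes, CCAAT in 39.1% and 43.0%, and TATAAA in 7.25% and 8.85%. Over all 27025 genes with a window the shares were 9.93% for ETS, 8.79% for NRF1, 18.2% for YY1, 8.09% for the E-box, 41.1% for CCAAT and 15.7% for TATAAA. A match is a description of the letters and does not show that a factor binds there. Mrpl12 held none of the 4 marked motifs in the printed stretch, Mrpl32 held 3 NRF1 units and Mrpl24 held 3 YY1 cores. Among the 32 members with a window that rose in mutant nTregs, 15 held the ETS motif, against 11 of the 37 that did not. The NRF1 unit went the other way (8 of 32 against 13 of 37), and the counts were 12 and 11 for the YY1 core, 14 and 13 for CCAAT, 4 and 1 for the E-box and 1 and 4 for TATAAA. These splits were not tested.

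All 78 genes were expressed in every library, with counts from 88 (Mrpl34) to 3714 (Mrpl24), and all passed the filter on low counts. Levels were compared between genes per kilobase of exon, over the summed exons of all isoforms of a gene. The mean over the 4 groups ran from 2.36 CPM per kilobase (Mrps10) to 47.7 (Mrpl42), a 20.2-fold range around a median of 9.10. The highest were Mrpl42, Mrps16 (46.8), Mrpl24 (37.2), Mrpl18 (32.3) and Mrps21 (30.9). The lowest after Mrps10 were Mrpl48 (2.38), Mrpl17 (2.55), Mrps35 (2.67) and Mrps25 (2.98). Subunits of one ribosome are used in fixed numbers, but these are levels of mRNA over exon models, and protein was not measured.

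Most members moved together across the 12 libraries. The 78 genes summed to 1486, 1442 and 1488 CPM in WT nTregs, 1960, 1607 and 1624 in mutant nTregs, 2006, 2000 and 2068 in WT iTregs, and 2253, 2223 and 2289 in mutant iTregs. On this scale the groups did not overlap, and mutant nTreg 1 lay close to the WT iTregs. As a share of all counts, without TMM, they did: the members took 0.201% in mutant nTreg 1 and 0.2% to 0.201% in WT iTregs. For 48 members (61.5%) the group means rose in this order, which 20.5% of all tested genes did, and 69 members (88.5%, against 34.1% of all tested genes) were lowest in WT nTregs. Pearson's r of a member with the mean of the others over the 12 libraries had a median of 0.92 and was above 0.8 for 57 members. It was below 0 for 2, Mrpl24 (-0.951) and Mrps35 (-0.142). These libraries share groups and scaling, so r is given as a description.

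**Figure D1:**
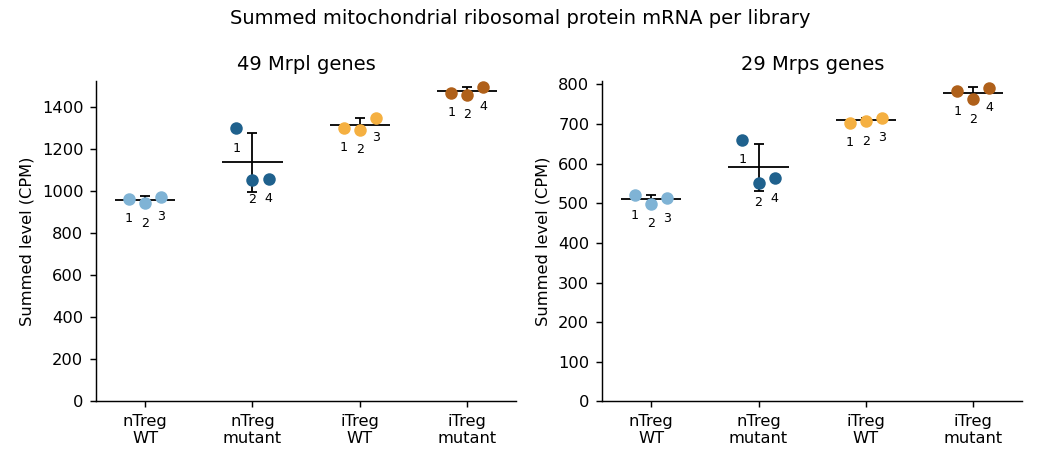
Summed level in CPM (vertical axis, from 0) of the 49 Mrpl genes (left) and the 29 Mrps genes (right) in each library, with the label's number under each point, the group mean as a line and the SD as a bar. In both panels the group means climb from WT nTregs to mutant iTregs, and mutant nTreg 1 stands above mutant nTregs 2 and 4. In the Mrpl panel mutant nTreg 1 (1300 CPM) lies within the range of the WT iTregs (1293 to 1352).

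The first comparison asked what the Gclc mutation changed in Tregs taken from the animal. Mitochondrial ribosomal protein mRNAs were higher in mutant than in WT nTregs: 35 of the 78 passed as higher (44.9%, against 19.3% of all 17977 tested genes) and 1 passed as lower (against 15.6%), at an adjusted p below 0.05 in edgeR's quasi-likelihood test. The median log2 fold change was 0.25 over the members and 0.04 over all tested genes. The rises were small, from 0.20 to 0.77 on the log2 scale, and no called member reached a 2-fold change. In 46 members every mutant library lay above every WT library, which held for 25.7% of all tested genes, and in 1 below (22.6%). By subunit name, 24 of 49 Mrpl genes rose and 1 fell, and 11 of 29 Mrps genes rose and none fell.

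Mrpl12, whose protein forms the stalk of the large subunit and is known to bind the mitochondrial RNA polymerase, had the largest rise. It stood at 16.1, 17.6 and 17.1 CPM in WT nTregs and at 36.2, 24.9 and 25.7 in mutant nTregs, a log2 fold change of 0.77 ± 0.13 (SE, adjusted p = 0.00107). The groups did not overlap, and mutant library 1 was far above the other mutant libraries. Mrps28, for a small subunit protein, stood at 3.29, 3.87 and 4.09 CPM in WT and 8.19, 5.64 and 5.20 in the mutant ones (0.75 ± 0.17, adjusted p = 0.00574). Mrpl54, for a large subunit protein, stood at 6.04, 7.11 and 6.82 CPM in WT and 14.1, 10.3 and 8.37 in mutant nTregs (0.71 ± 0.16, adjusted p = 0.00496). Both again had separate groups with mutant library 1 on top.

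Mrpl27, Mrpl18 and Mrpl20 encode large subunit proteins with bacterial relatives, and that of Mrpl18 contacts ribosomal RNA. Mrpl27 stood at 8.21, 7.48 and 8.09 CPM in WT nTregs and 17.0, 11.3 and 10.4 in mutant nTregs (log2 fold change 0.70 ± 0.16, adjusted p = 0.00512). Mrpl18 stood at 25.9, 29.1 and 30.1 CPM in WT and 60.3, 37.1 and 38.4 in mutant nTregs (0.67 ± 0.15, adjusted p = 0.0056). Mrpl20 stood at 17.3, 16.9 and 18.1 CPM in WT and 36.5, 22.4 and 23.0 in mutant nTregs (0.65 ± 0.15, adjusted p = 0.00627). In all 3 the lowest mutant library lay above the highest WT library.

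Mrpl24, for a large subunit protein that binds early in assembly in bacteria, was the only member that fell. It stood at 105, 103 and 108 CPM in WT nTregs and at 81.0, 84.8 and 94.3 in mutant nTregs, where it fell by 0.29 ± 0.07 on the log2 scale (adjusted p = 0.00856). Here mutant library 1 was the lowest of the 6, so it stood at the end away from WT for this gene as well.

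Mutant nTreg 1 was the highest of the 3 mutant nTreg libraries for 72 of the 78 members (92.3%, against 42.3% of all tested genes). Beside this, 8 of the 10 CD8 T and NK markers rose in mutant nTregs, and Cd8a stood at 219 CPM in mutant library 1 against 19.1 and 27.2 in the other mutant libraries and 3.70 to 6.36 in WT nTregs. All 20 genes of a proliferation list rose too. Their sum was 4804 CPM in mutant library 1, 2939 and 2912 in the other mutant libraries, and 1166 to 1509 in WT nTregs. Their part in the rise of the members was not tested. Without mutant nTreg 1, 26 members rose, all of them among the 35, 1 fell and the median was 0.19. Of all 18387 genes tested in that fit, 3359 rose and 2065 fell. Mrpl12 then rose by 0.61 and Mrpl24 fell by 0.21 on the log2 scale, and both still passed. The count of members that rose was 22 without WT nTreg 2 and 23 without WT nTreg 3, and 19 when only the 6 nTreg libraries were fitted. Over all tested genes these counts were 2507 of 18399, 2500 of 18412 and 2483 of 17146, against 3471 of 17977 in the main fit.

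**Figure D2:**
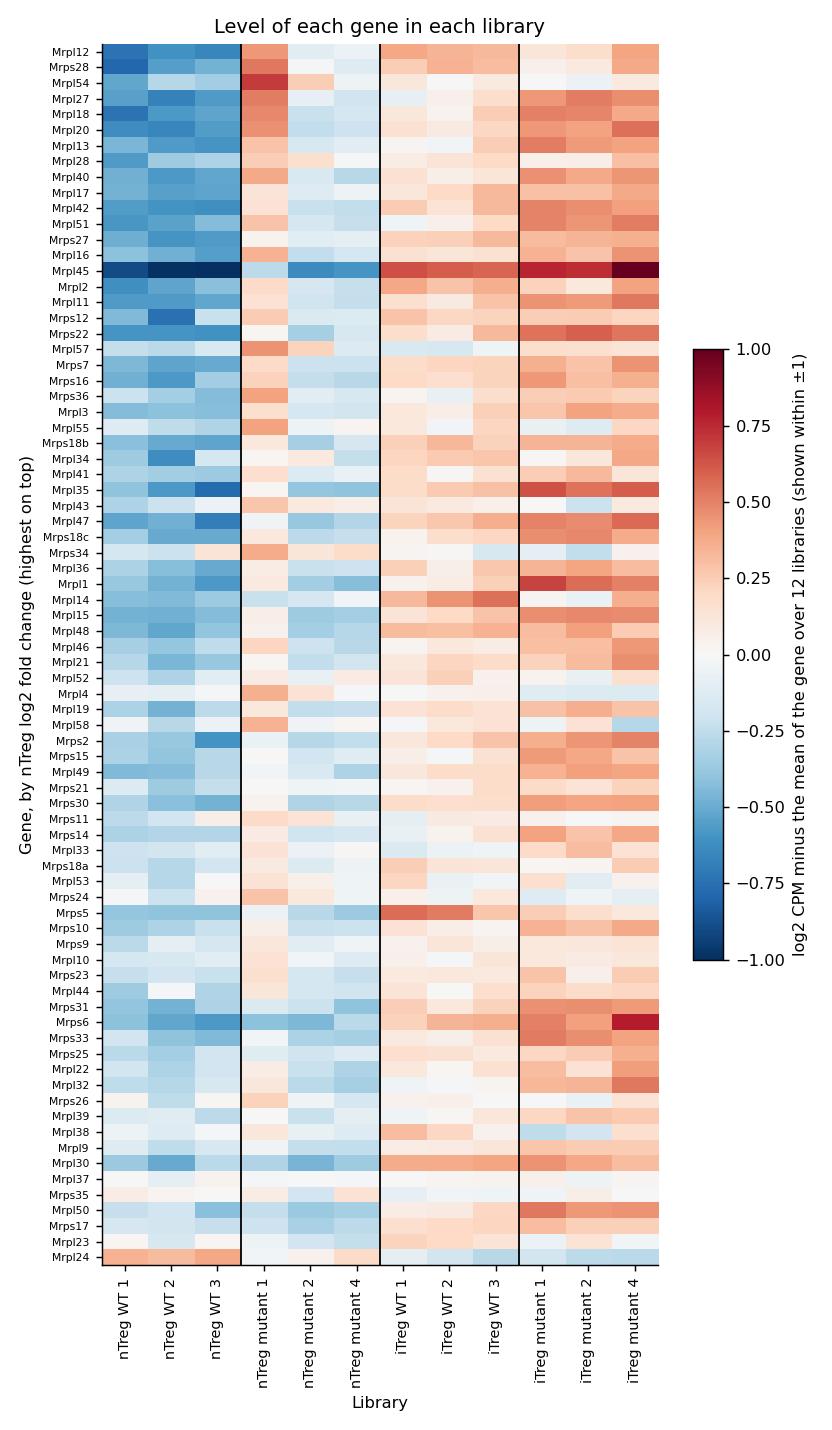
Log2 CPM of each of the 78 genes (rows) in each of the 12 libraries (columns) as the difference from the gene's own mean over all libraries, with colours cut at ±1. Rows run from the largest rise (Mrpl12) to the fall (Mrpl24) in mutant nTregs, most rows pass from blue in WT nTregs to red in mutant iTregs, and Mrpl24 runs the other way.

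The same comparison in iTregs, which shares no library with the first, asked what the mutation changed in Tregs made in culture. Here 14 members passed as higher (17.9%, against 14.0% of all tested genes) and 1 as lower (against 11.4%), so the share that rose was near that of all genes; 25.4% of all tested genes passed in either direction. The median log2 fold change was 0.16 over the members and 0.04 over all tested genes, and the called rises ran from 0.25 to 0.46. In 43 members every mutant library lay above every WT library (26.8% of all tested genes did so), and in 3 below (19.7%). By subunit name 7 of 49 Mrpl genes rose and none fell, and 7 of 29 Mrps genes rose and 1 fell.

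Mrpl1, for a protein of the mobile stalk by which spent tRNA leaves the ribosome, had the largest rise in iTregs. It stood at 24.6, 25.1 and 28.1 CPM in WT iTregs and at 38.2, 35.2 and 33.9 in mutant iTregs (log2 fold change 0.46 ± 0.12, adjusted p = 0.017). The groups did not overlap. Mrpl32, for a large subunit protein that the mitochondrial AAA protease trims before assembly, stood at 21.6, 22.1 and 22.7 CPM in WT and 28, 28.2 and 32.1 in mutant iTregs (0.41 ± 0.11, adjusted p = 0.0157). Mrpl51 stood at 25.1, 26.9 and 29.8 CPM in WT and 36.6, 35.1 and 37.0 in mutant iTregs (0.41 ± 0.12, adjusted p = 0.0259). These genes, too, had every mutant library above every WT library.

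Among small subunit genes, Mrps33 stood at 31.9, 31 and 33.2 CPM in WT and 42.8, 41.1 and 39.4 in mutant iTregs (log2 fold change 0.36 ± 0.09, adjusted p = 0.0154). Mrps22, whose protein is found only in mitochondrial ribosomes, stood at 21.3, 20 and 23.6 CPM in WT and 27.4, 28.6 and 27.3 in mutant iTregs (0.36 ± 0.09, adjusted p = 0.0153). Mrpl13, a large subunit gene, rose by as much (0.36 ± 0.11, adjusted p = 0.0322), from 37.8 to 45.7 CPM in WT to 51.1 to 55.0 in mutant iTregs. Mrps5, for a protein near the channel by which mRNA enters the small subunit, was the only member that fell in iTregs. It stood at 50.3, 49.1 and 41.4 CPM in WT and 40.5, 38.7 and 36.8 in mutant iTregs and fell by 0.28 ± 0.09 on the log2 scale (adjusted p = 0.0431). WT iTreg 3 came within 1 CPM of the highest mutant library, so the groups were only just apart, and the call was lost in 8 of the 12 fits with 1 library left out.

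The iTreg calls lay close to the threshold and depended on the libraries in the fit. Without WT iTreg 1, 1 member passed as higher, and without WT iTreg 2, 2 did. Without mutant iTreg 1, 2 or 4, 4, 6 and 7 did. The calls over all tested genes moved as well, from 2517 of 17977 higher in the main fit. They were 773 of 18434 without WT iTreg 1 and 941 of 18391 without WT iTreg 2. Without mutant iTreg 1, 2 or 4 they were 1163 of 18395, 1474 of 18394 and 2184 of 18386. Without mutant nTreg 1, which is no iTreg library but enters the shared estimate of spread, 24 members passed as higher and 3 as lower. Of all 18387 genes tested in that fit, 3164 passed as higher and 3096 as lower. Scaling by library size alone gave 7 members higher and 4 lower with a median of 0.07, and it moved the share of higher among all called genes from 55.2% to 35.5%. With the filter of 1 CPM in 3 libraries that share was 45.0%, and 2 members passed as lower. Markers of CD8 T and NK cells gave no call in iTregs, and 8 of the 20 proliferation genes rose, with sums of 4655 to 6281 CPM in WT and 6633 to 7903 in mutant iTregs. The part of the proliferation genes in the iTreg rises was not tested.

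Of the members, 7 rose in both kinds of Treg: Mrpl13, Mrpl33, Mrpl35, Mrpl51, Mrps15, Mrps18c and Mrps22. They were 7 of the 35 that rose in nTregs and 7 of the 14 that rose in iTregs, shares close to those of all 78 members in the other comparison (17.9% in iTregs and 44.9% in nTregs). Another 7 passed as higher in iTregs and not in nTregs, namely Mrpl1, Mrpl32, Mrpl50, Mrps10, Mrps14, Mrps31 and Mrps33, and 34 had no call in either. Across the 78 genes the nTreg and iTreg log2 fold changes had a Pearson's r of 0.16 and a Spearman's rho of 0.16. Across all tested genes Pearson's r was 0.34. Genes are not independent replicates, and both effects share 1 estimate of spread.

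**Figure D3:**
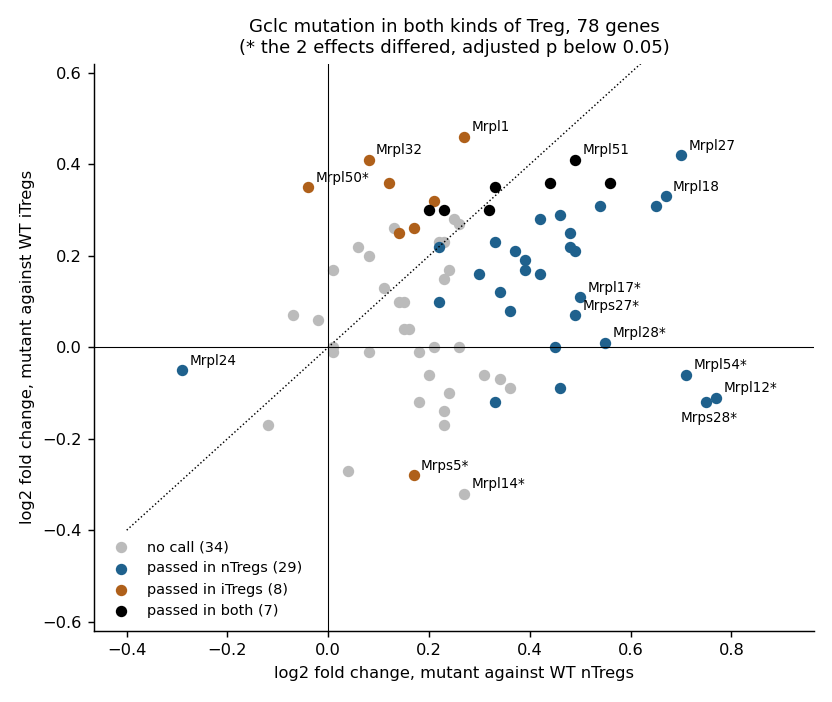
Log2 fold change of mutant against WT in nTregs (horizontal axis) and in iTregs (vertical axis) for the 78 genes, coloured by where they passed, with the line of equal effects dotted. Most points lie right of 0, and Mrpl12, Mrps28 and Mrpl54 lie far right with iTreg values just under 0.

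Whether the mutation acted differently in the 2 kinds of Treg was tested as the difference of the effects (iTreg minus nTreg). It passed for 9 members: 8 had a smaller log2 fold change in iTregs (10.3%, against 7.18% of all tested genes) and 1 a larger one (1.28%, against 6.12%). The median difference over the members was -0.14, and 0.00 over all tested genes. The difference shares its libraries with both comparisons above, so it adds no separate evidence for either. Mrpl12 differed most: mutant and WT iTregs overlapped (29.1, 30.3 and 35.2 against 35, 33.9 and 33.5 CPM), and the difference was -0.88 ± 0.18 (adjusted p = 0.0096). Mrps28 stood at 6.73, 7.24 and 7.03 CPM in WT and 5.88, 6.09 and 7.41 in mutant iTregs, with a difference of -0.87 ± 0.24 (adjusted p = 0.0337). Mrpl54 stood at 9.40, 8.67 and 9.27 CPM in WT and 8.71, 8.32 and 9.26 in mutant iTregs, with a difference of -0.77 ± 0.22 (adjusted p = 0.0404).

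The 3 genes with the largest rises in mutant nTregs thus had overlapping genotypes in iTregs. The other smaller effects in iTregs were those of Mrpl14 (-0.59 ± 0.18, adjusted p = 0.05, just under the threshold), Mrpl28 (-0.54 ± 0.15), Mrps5 (-0.45 ± 0.13), Mrps27 (-0.43 ± 0.11) and Mrpl17 (-0.40 ± 0.12). Mrpl14, for a protein between the subunits, stood at 4.31, 4.28 and 4.50 CPM in WT nTregs, 4.96, 5.16 and 5.69 in mutant nTregs, 7.24, 7.90 and 8.51 in WT iTregs and 5.91, 5.55 and 7.47 in mutant iTregs. Its nTreg groups were apart with mutant above WT, and its iTreg groups overlapped with mutant mostly below WT. Mrpl50, for a protein found only in mitochondrial ribosomes, was the one with the larger effect in iTregs (0.38 ± 0.11, adjusted p = 0.0367). It stood at 26.1, 26.8 and 22.9 CPM in WT nTregs, 25.9, 23.7 and 24.3 in mutant nTregs, 32.3, 32.6 and 35.3 in WT iTregs and 44.1, 41.4 and 41.7 in mutant iTregs. Its nTreg groups overlapped and its iTreg groups did not.

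These differences rested on few libraries. Mrpl12 passed in all 12 fits with 1 library left out, with values from -0.97 to -0.76 and adjusted p from 0.00222 to 0.0308. The count of members with a smaller effect in iTregs was 1 without WT iTreg 1, WT iTreg 2, mutant iTreg 1, mutant iTreg 2 or WT nTreg 2. It was 2 without WT iTreg 3 or WT nTreg 1, 4 without mutant nTreg 2 or WT nTreg 3, and 11 without mutant nTreg 1. Over all tested genes the count with a smaller effect in iTregs was 1291 of 17977 in the main fit. With 1 library left out it ran from 610 of 18399 (WT nTreg 2) to 2146 of 18387 (mutant nTreg 1). Scaling by library size alone gave 14 with a smaller and none with a larger effect, moved the median over all tested genes to -0.14 and the share of positive among all calls from 46% to 17.8% (34.4% with the filter of 1 CPM). Relative to that shift the median of the members, -0.28 under that scaling, was about as far from all genes as under TMM.

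**Figure D4:**
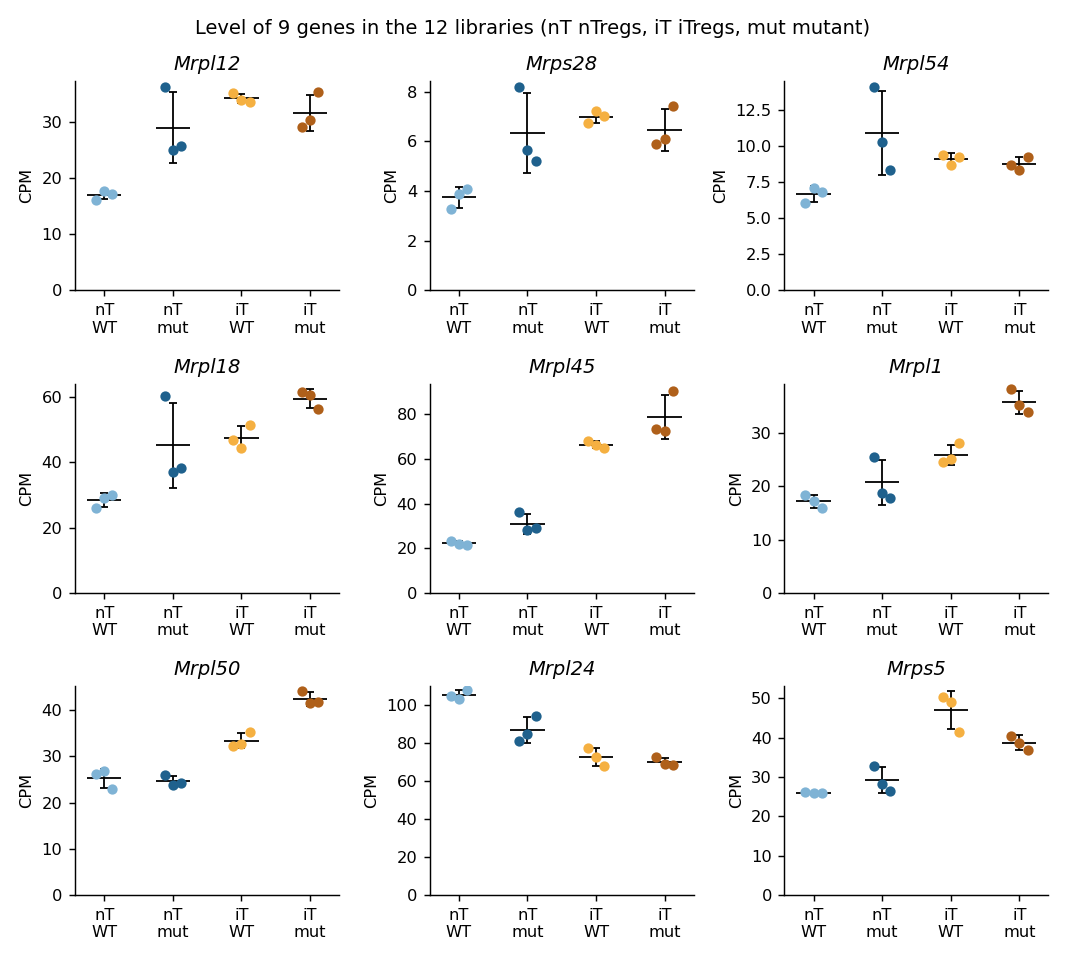
CPM (vertical axis, from 0) of 9 members in the 12 libraries by group, with each group's mean as a line and its SD as a bar. Mrpl12, Mrps28 and Mrpl54 rise with the mutation in nTregs and overlap between genotypes in iTregs, Mrpl45 separates iTregs from nTregs, and Mrpl24 falls across the groups.

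WT iTregs were then compared with WT nTregs, which asks how Tregs made in culture differ from sorted ones without the mutation. In iTregs 63 of the 78 members were higher (80.8%, against 33.7% of all tested genes) and 1 was lower (against 35.7%), with a median log2 fold change of 0.52 (-0.02 over all tested genes). In 68 members every iTreg library lay above every nTreg library, as for 37.9% of all tested genes, and in 2 below (39.9%). This comparison shares the WT libraries with the 2 genotype comparisons. All 20 proliferation genes rose here as well. All 6 B cell markers, 4 of 5 erythroid markers and 2 of 10 CD8 T and NK markers were lower, and none was higher. Of 7 Treg markers 5 were lower and 1 higher. Of 6 tested myeloid markers 5 were lower and 1 higher, and of 4 plasma cell markers 3 were lower and 1 higher. Their part was not tested.

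Mrpl45, whose protein sits at the exit tunnel and helps to hold the ribosome at the inner membrane, stood out in size. It was at 23.4, 21.9 and 21.5 CPM in WT nTregs and at 68.0, 66.3 and 65.1 in WT iTregs, a log2 fold change of 1.58 ± 0.11 (adjusted p = 9.16e-08). No iTreg library came near an nTreg library. Mrpl12 was the other member past 2-fold (1.01 ± 0.13, adjusted p = 1.66e-05). Mrps28 (0.90 ± 0.17) and Mrpl2 (0.87 ± 0.12), for a protein next to the site where peptide bonds form, followed. Mrpl24 was again the only member to fall, from 103 to 108 CPM in WT nTregs to 77.4, 72.6 and 68.1 in WT iTregs, by 0.54 ± 0.07 on the log2 scale (adjusted p = 2.26e-05).

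Between mutant iTregs and mutant nTregs 50 members were higher (against 33.2% of all tested genes) and 3 lower (against 35%), with a median log2 fold change of 0.40. In 44 members every iTreg library lay above every nTreg library (33.6% of all tested genes did so), and in 3 below (35.2%). All 20 proliferation genes were higher in mutant iTregs. The markers that were lower were 8 of the 10 CD8 T and NK, all 6 B cell, all 6 myeloid and all 5 erythroid markers. Of 7 Treg markers 4 were lower and 1 higher, and of 4 plasma cell markers 2 were lower and 1 higher. Their part was not tested. Mrpl45 was at 36.2, 28 and 28.9 CPM in mutant nTregs and 73.6, 72.7 and 90.4 in mutant iTregs (log2 fold change 1.35 ± 0.11, adjusted p = 2.99e-07). Mrps6 (0.95 ± 0.10), Mrpl35 (0.84 ± 0.12) and Mrpl1 (0.79 ± 0.12) came next. Mrps6 shares 15.1% of its exon bases with Slc5a3 on the same strand (mean 105 CPM, against 28.7 for Mrps6), so its value is less certain. The members that fell were Mrps34 (-0.32 ± 0.11, adjusted p = 0.0255), Mrpl24 (-0.31 ± 0.07, adjusted p = 0.00192) and Mrpl4 (-0.31 ± 0.09, adjusted p = 0.00765). Mrps34 stood at 21.2, 17.8 and 18.6 CPM in mutant nTregs and 15.4, 13.8 and 16.9 in mutant iTregs, groups that did not overlap. Of its exon bases 37.0% are shared with Nme3 on the same strand, so its value is uncertain. Without mutant iTreg 1 or 2 it did not pass (adjusted p = 0.0601 and 0.113), and 2 members fell. Without mutant nTreg 4, 5 members fell. Under library size alone 36 were higher and 9 lower, with the median of all tested genes at -0.205 in place of -0.016, and the share of higher among all called genes was 36% in place of 48.7%.

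**Figure D5:**
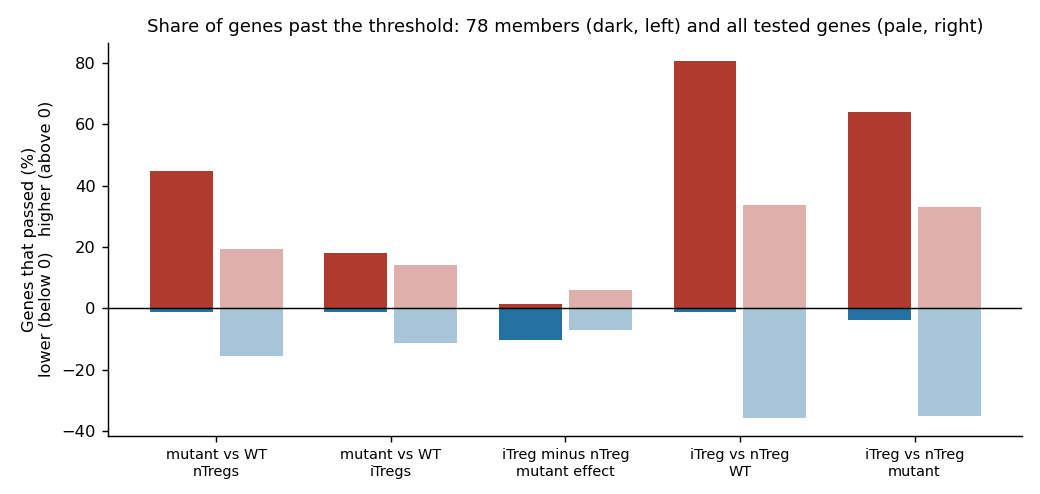
Percent of genes past the threshold as higher (above 0) and as lower (below 0) in the 5 comparisons, with the 78 members as dark bars and all 17977 tested genes as pale bars. The members' bars for higher exceed those of all genes most in WT iTregs against WT nTregs (80.8% and 33.7%) and by little in mutant against WT iTregs (17.9% and 14.0%), and lie below for the difference of the effects (1.28% and 6.12%).

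The genes named for their roles showed how members differ. Of the Mrps18 paralogs, Mrps18b rose in mutant nTregs (log2 fold change 0.36 ± 0.10, adjusted p = 0.0129) with 0.08 ± 0.10 in iTregs, a value that turned to -0.01 under library size alone. Mrps18c rose in nTregs (0.32 ± 0.10, adjusted p = 0.0277) and in iTregs (0.30 ± 0.10, adjusted p = 0.0449), and the iTreg call was lost in 10 of the 12 fits with 1 library left out. Its nTreg call was lost in 2 of these fits and with the compared libraries alone (adjusted p = 0.0873). The nTreg call of Mrps18b was lost in 1 of these fits, with the compared libraries alone (adjusted p = 0.0603) and under the replicate block (adjusted p = 0.0507). Mrps18a, for the paralog in the large subunit, had 0.20 ± 0.09 (adjusted p = 0.103) and -0.06 ± 0.09 (adjusted p = 0.667). None of the 3 passed for the difference of the effects.

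Mrps12, for a protein of the decoding centre, rose in mutant nTregs (log2 fold change 0.45 ± 0.15, adjusted p = 0.033), from 4, 3.23 and 4.65 CPM in WT to 6.48, 4.91 and 4.93 in mutant. It had 0.00 ± 0.14 in iTregs, a value whose sign changed with the scaling. Without mutant nTreg 1 the nTreg value was 0.34 and did not pass. The nTreg call was lost in 4 of the 12 fits with 1 library left out. The others were those without WT nTreg 1 (adjusted p = 0.0783), WT nTreg 2 (0.135) or WT iTreg 1 (0.0566). With the compared libraries alone it was lost as well (adjusted p = 0.108). Mrpl11, at the base of the stalk, rose in nTregs (0.46 ± 0.10, adjusted p = 0.0049) and had 0.29 ± 0.10 in iTregs (adjusted p = 0.0518). It passed in iTregs with RLE scaling (adjusted p = 0.0433), with DESeq2 (0.0285), with the compared libraries alone (0.0358), and without WT iTreg 3 (0.0473) or mutant nTreg 1 (0.0158). Mrpl58, a peptidyl-tRNA hydrolase that frees stalled chains, had 0.23 ± 0.13 (adjusted p = 0.169) and -0.14 ± 0.13 (adjusted p = 0.458). Mrps36, the dehydrogenase subunit, rose in nTregs (0.39 ± 0.14, adjusted p = 0.0438) and lost this call in 9 of 12 fits with 1 library left out.

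Members with numbers that the naming takes from bacterial proteins (Mrpl up to 36 and Mrps up to 21) were set beside the others, which mostly encode proteins found only in mitochondria. Of the 44 with such numbers, 21 rose and 1 fell in mutant nTregs, 9 rose and 1 fell in mutant iTregs, and 39 rose and 1 fell in WT iTregs against WT nTregs. Of the 34 others the counts were 14 and 0, 5 and 0, and 24 and 0. Of all tested genes 19.3%, 14.0% and 33.7% were higher in these comparisons, and 15.6%, 11.4% and 35.7% were lower. The rises in mutant against WT iTregs (20.5% and 14.7% of the 2 classes) thus lie near the background. Those in WT iTregs against WT nTregs (88.6% and 70.6%) lie above it. The median nTreg log2 fold change was 0.25 in both classes.

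The other genes that make this ribosome work were taken from lists written from general knowledge. Of 5 further ribosomal proteins of mitochondria that carry other names, 1 rose in mutant nTregs (Aurkaip1, log2 fold change 0.33 ± 0.09, adjusted p = 0.0129). In mutant iTregs 1 of the 5 rose (Ptcd3, 0.27 ± 0.07, adjusted p = 0.0127), and none fell in either. Of all tested genes 19.3% rose in nTregs and 14.0% in iTregs. The median log2 fold change of the 5 was 0.05 in nTregs and -0.02 in iTregs, against 0.04 over all tested genes in both. This set thus lay near the background. Of 27 tested genes for ribosome assembly and ribosomal RNA modification, 6 rose and 4 fell in nTregs (22.2% and 14.8%, against 19.3% and 15.6% of all tested genes). In iTregs 3 rose and 2 fell (11.1% and 7.41%, against 14.0% and 11.4%), so both counts lie near the background. Mettl17, which acts in small subunit assembly, fell in both (by 0.52 ± 0.10, adjusted p = 0.00195, and by 0.33 ± 0.10, adjusted p = 0.0318), and C1qbp rose in nTregs (0.65 ± 0.13, adjusted p = 0.00332). Of 13 tested translation factors 4 rose in nTregs (30.8%, against 19.3% of all tested genes) and 1 in iTregs (7.69%, against 14.0%). Gfm1, an elongation factor, rose in both (0.46 ± 0.12, adjusted p = 0.00923, and 0.34 ± 0.11, adjusted p = 0.0463).

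The mRNAs that the mitochondrial ribosome translates were counted as well. Of the 13 protein-coding mitochondrial genes 1 rose in mutant nTregs (mt-Nd2, 7.69%, against 19.3% of all tested genes). In mutant iTregs 10 rose (76.9%, against 14.0%), and none fell in either. By the test of the difference 5 had a larger effect in iTregs (38.5%, against 6.12%). The median log2 fold change of the 13 genes was -0.11 in nTregs and 0.40 in iTregs. Mutant iTreg 4 stood apart here: the 13 genes summed to 64050 and 60280 CPM in mutant iTregs 1 and 2 but to 47610 in mutant iTreg 4, within the 41420 to 48950 of WT iTregs. Every mutant iTreg library lay above every WT one for only 4 of the 13. Neither of the mitochondrial ribosomal RNAs passed in the genotype comparisons, and both were higher in WT iTregs than in WT nTregs (mt-Rnr2 by 2.12 ± 0.24 and mt-Rnr1 by 1.21 ± 0.17). The library kit selects RNA with a poly(A) tail, so ribosomal RNA is measured poorly. Of 14 genes for copying and transcribing mitochondrial DNA, 1 rose and 4 fell in nTregs (7.14% and 28.6%, against 19.3% and 15.6% of all tested genes). Polg, the DNA polymerase, fell there by 0.43 ± 0.08 (adjusted p = 0.00161). In iTregs 3 rose and 1 fell (21.4% and 7.14%, against 14.0% and 11.4%). The gene that fell there was Polrmt, the RNA polymerase (by 0.57 ± 0.16, adjusted p = 0.0216).

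Of 11 tested regulators of nuclear genes for mitochondrial proteins, Sp1 (-0.28 ± 0.07) and Yy1 (-0.23 ± 0.08) fell in mutant nTregs (18.2%, against 15.6% of all tested genes). In mutant iTregs Yy1 rose (0.31 ± 0.08, adjusted p = 0.0125) and Esrra and Ppargc1b fell (9.09% and 18.2%, against 14.0% and 11.4%). The difference of the Yy1 effects was 0.54 ± 0.11 (adjusted p = 0.00875). Myc was higher in WT iTregs than in WT nTregs (1.0 ± 0.10, adjusted p = 2.94e-06) and had 0.28 ± 0.10 (adjusted p = 0.055) in mutant nTregs and -0.19 ± 0.10 (adjusted p = 0.18) in mutant iTregs. For comparison, of 77 tested genes for cytosolic ribosomal proteins 7 rose and 8 fell in mutant nTregs (9.09% and 10.4%, against 19.3% and 15.6% of all tested genes). In mutant iTregs 7 rose and 21 fell (9.09% and 27.3%, against 14.0% and 11.4%). In WT iTregs against WT nTregs 74 rose (96.1%, against 33.7%).

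Members often lie head to head with another gene. For 21 of the 78 (26.9%, against 11.9% of 12950 tested protein-coding genes) a protein-coding gene on the other strand started within 1000 bases and ran the other way, counting pairs that overlapped by up to 200 bases at their starts. Of the 20 such partners that were tested, 5 rose and 4 fell in mutant nTregs (against 19.3% and 15.6% of all tested genes), which is near the background. Of the 20 members beside them 12 rose, and in 4 pairs both genes rose, so no link between partner and member is read from these counts. The partners in these 4 pairs were Ncapd2, a condensin subunit next to Mrpl51 (1.18 ± 0.13), Ska3, a kinetochore gene next to Mrpl57 (1.54 ± 0.22), Eme1, a nuclease gene for DNA repair next to Mrpl27 (1.79 ± 0.23), and Sars2, a mitochondrial tRNA synthetase gene next to Mrps12 (0.76 ± 0.11). The partners' log2 fold changes exceeded those of the members (0.49 for Mrpl51, 0.42 for Mrpl57, 0.70 for Mrpl27 and 0.45 for Mrps12). Psma2, a proteasome gene next to Mrpl32, rose in mutant nTregs (0.45 ± 0.12), where Mrpl32 had 0.08 ± 0.11, and in mutant iTregs (0.43 ± 0.12), where Mrpl32 rose by 0.41.

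Some values are uncertain for reasons of counting. Reads that aligned to several places were counted at each, and the files list pseudogenes of Mrpl23, Mrpl48 and Mrps36 with counts (Mrpl23-ps1 at 16.8 to 24.9 CPM, Mrpl48-ps at 7.13 to 16.5, and Mrps36-ps1 at 4.31 to 9.45), so reads of these members may be shared. Exon bases were shared with another gene on the same strand for 8 members, most of all for Mrpl53 (88.0% with Gm42688). Mrps34 (37.0% with Nme3), Mrps18c (23.2% with Gm43511) and Mrps6 (15.1% with Slc5a3) were among these 8. For 26 members exon bases were shared with a gene on the other strand, which the strand-specific counting keeps apart.

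The 10 nuclear genes outside the list whose log2 CPM was most alike to the members' mean over the 12 libraries had Pearson's r from 0.989 to 0.993. They were Ebna1bp2, Lyar and Nop9, of ribosome assembly in the nucleolus, Uck2, of pyrimidine salvage, Atp5a1, of ATP synthase, Stoml2, of the inner mitochondrial membrane, Sdhc, of complex II, Psmc5, of the proteasome, Xpnpep1, a peptidase, and Lgals3, a galectin. Ebna1bp2, the closest, had means of 44.4 CPM in WT nTregs, 57.2 in mutant nTregs, 66.2 in WT iTregs and 72.5 in mutant iTregs. The likeness rests on 12 libraries in 4 groups and is a description.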

How the data were processed

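Gene counts of 12 libraries were used as deposited. Per the file headers, the authors counted with featureCounts 1.5.2 on Ensembl release 87 of GRCm38, by strand, summing exons by gene; multi-mapping reads count at each place. The submitters' processing notes name bcl2fastq 2.18.0.12, STAR 2.5.2b, Subread 1.5.2 and mm10. Library preparation used a TruSeq Stranded mRNA kit, per the labels' protocols. GENCODE gave symbols for 49412 of 49671 genes, and groups came from the labels.

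edgeR 4.0.16 (R 4.3.3) was run with filterByExpr (17977 genes), TMM, 4 group means (leaving 8 residual degrees of freedom), two-sided quasi-likelihood F-tests and Benjamini-Hochberg adjustment over all tested genes (threshold 0.05). SEs come from the F statistic. The procedure was tested on simulated data. In each direction the 6 largest called changes of a genotype comparison and the 4 largest of any other were named, with the 5 highest and 5 lowest levels, 8 members by role, up to 3 genes by adjusted p in each list and the 10 most alike genes. Mrpl17, Mrpl28, Mrps27 and the head-to-head partners were named after their values were seen, and so was any other gene outside this rule. The members and lists were chosen with earlier results of these data known.

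Alternatives were RLE scaling, library size alone, other filters (none, or 1 CPM in 3 libraries), DESeq2 1.42.0, fits of only the libraries compared, a replicate block, and leaving out each library. Within groups, libraries differed by 4.2 to 47.2 times counting noise (chi-square per degree of freedom), so no pair agreed within counting noise. Promoters were not analysed here for Mrpl4, Mrpl13, Mrpl15, Mrpl19, Mrpl38, Mrpl54, Mrps28, Mrps34 and Mrps35.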

Additional observations from a re-analysis of the deposited data

Results flagged for a closer look

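For 9 members the effect of the Gclc mutation differed between iTregs and nTregs by the test of the difference itself, which 13.3% of all tested genes passed in either direction, so the members were not called more often than other genes. As iTreg minus nTreg log2 fold changes, these were -0.88 for Mrpl12, -0.87 for Mrps28, -0.77 for Mrpl54, -0.59 for Mrpl14, -0.54 for Mrpl28, -0.45 for Mrps5, -0.43 for Mrps27, -0.40 for Mrpl17 and 0.38 for Mrpl50. Of these, Mrpl12 passed in all 12 fits with 1 library left out, while Mrpl14 lost its call in 10 of them, Mrpl54 in 9, and Mrps28 and Mrpl50 in 7 each.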

How the results depend on the processing

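Under library size alone, mutant iTregs had 7 members higher and 4 lower, the difference of the effects 0 higher and 14 lower, and mutant iTregs against mutant nTregs 9 lower. Of all 17977 tested genes, 1606 were then higher and 2921 lower in mutant iTregs. The difference gave 518 higher and 2393 lower, and 7832 were lower in mutant iTregs against mutant nTregs. With no filter, mutant iTregs had 0 members lower and the difference 0 higher and 5 lower. Of all 30451 genes, 1864 were then lower in mutant iTregs, and the difference gave 943 higher and 1316 lower. With the filter of 1 CPM, mutant iTregs had 2 members lower and mutant iTregs against mutant nTregs 5 lower, against 2490 and 5727 of all 15308 genes. With the compared libraries alone, 19 members rose in mutant nTregs, and 23 rose and 2 fell in mutant iTregs. Of all tested genes, 2483 of 17146 rose in mutant nTregs, and 2869 of 16150 rose and 2805 fell in mutant iTregs. Apart from 3 counts under the replicate block, given with the pairing, the other 52 counts over these settings, RLE scaling and DESeq2 were within 1.5 times the value in the report. With 1 library left out, members higher and lower ran from 22 to 34 and 1 to 1 in mutant nTregs, 1 to 24 and 0 to 3 in mutant iTregs, 0 to 2 and 1 to 11 for the difference, 56 to 65 and 1 to 1 in WT iTregs against WT nTregs, and 40 to 52 and 2 to 5 in mutant iTregs against mutant nTregs. All tested genes higher and lower ran from 2485 to 3610 and 2003 to 3056 in mutant nTregs. In mutant iTregs they ran from 773 to 3164 and 997 to 3096, and for the difference from 494 to 1310 and 610 to 2146. In WT iTregs against WT nTregs they ran from 5609 to 6382 and 6027 to 6895. In mutant iTregs against mutant nTregs they ran from 5508 to 6028 and 5802 to 7195. The sign turned for values near 0: Mrps12 in mutant iTregs gave -0.01 with RLE and DESeq2, -0.09 with library size alone, -0.00 with no filter, -0.04 with the 1 CPM filter and with the compared libraries alone, and -0.04 to 0.01 without 1 library; Mrps18b there gave -0.01 with library size alone; the Mrps18c difference (-0.02) ran from -0.08 to 0.03 without 1 library. The causes were not tested.

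Replicate numbers showed no pairing of the libraries by 1 measure: same-numbered libraries had correlations of deviations from -0.06 to 0.05 over 14 pairs. These pairs cross genotypes and kinds of Treg, so they cannot settle whether a number marks a shared animal or batch. With the number as a replicate block, 29 members rose in mutant nTregs, 11 rose and 0 fell in mutant iTregs, and the difference passed for 0 higher and 1 lower. The last 3 of these moved by over 1.5 times. Of all 17977 tested genes, 2919 rose in mutant nTregs under the block, and 1677 rose and 1359 fell in mutant iTregs. The difference then passed for 650 higher and 821 lower. The lowest member count was 88, and how far depth limits the calls was not tested.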
